A study of Mus musculus with 20 samples.

Results

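The genes described here encode enzymes of xenobiotic metabolism, the chemical conversion of drugs, toxins and related body compounds. They were taken by symbol from the deposited read count table: cytochrome P450 genes (Cyp), uridine diphosphate glycosyltransferases (Ugt), glutathione S-transferases (Gst), cytosolic sulfotransferases (Sult) and flavin-containing monooxygenases (Fmo), without pseudogenes. This gave 140 of 34255 genes, made up of 81 Cyp, 23 Gst, 16 Ugt, 14 Sult and 6 Fmo genes. The rule uses gene symbols alone. Samples came from kidneys of healthy wild-type male C57BL6/OlaHsd mice aged 8 to 12 weeks, with no treatment in any group. Laser microdissection (LMD), in which outlined structures are cut from a cryosection under the microscope, gave 4 groups from the cortex: post-capillary venules, peritubular capillaries, glomeruli and arterioles. By the methods, the venules, glomeruli and arterioles of a mouse came from the same slide, and its peritubular capillaries from another slide. Whole kidney sections made the remaining group. Each group had 4 libraries made from 3′ ends of mRNA, with 4639090 to 12283098 counts per library. In the labels, samples within a group are biological replicates, but no mouse is named for any of them. The p-values below therefore reflect only how far these samples spread. Libraries are named by the number in the count table, and 4 values given in a row follow the order 93, 96, 98 and 100.

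Xenobiotic metabolism is usually divided into a first phase, in which Cyp and Fmo enzymes oxidize a compound with electrons from NADPH, and a second phase, in which Ugt, Gst and Sult enzymes attach a sugar, glutathione or a sulfate group. The products are more soluble and are exported from the cell. Many members also act on the body's own compounds, such as fatty acids, steroids, retinoic acid, bile acid precursors and catecholamines. In the kidney, these enzymes are best known from the proximal tubule, which takes up and secretes organic compounds and lies directly beside the peritubular capillaries.

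The samples are pieces of tissue and not sorted cells, and fewer cells of a type cannot be told apart from less RNA per cell. The mean share of counts on 15 genes that mark all endothelium was 0.532% in glomeruli, 0.396% in arterioles, 0.148% in venules, 0.0828% in peritubular capillaries and 0.0684% in whole kidney. Genes that mark the proximal tubule (24 genes, none of them an enzyme described here) took 8.51% (range 7.47 to 9.41) in peritubular capillaries, 5.296% (5.15 to 5.44) in whole kidney, 3.39% (3.18 to 3.65) in venules, 1.12% (0.989 to 1.35) in glomeruli and 1.08% (0.625 to 1.73) in arterioles. All 24 were above 0 in each group. The samples labelled peritubular capillaries therefore held a higher share of counts on these 24 genes than whole kidney did, with no overlap between their libraries. The gene Kap alone held 69.3% of these counts in capillaries and 64.2% in whole kidney. Genes of tubule segments S1 and S2 were also higher in capillaries (0.864 to 1.31% against 0.495 to 0.559%). Those of segment S3 overlapped (0.186 to 0.240% against 0.202 to 0.250%). The LMD libraries were made with a low-input protocol and more PCR cycles than the whole kidney libraries, and this difference cannot be told apart from the comparison with whole kidney. Peritubular capillaries were cut from a slide stained with a fluorescent lectin, and the other compartments from a slide stained with hematoxylin. This cannot be told apart from the comparison of capillaries with the other compartments.

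The 140 enzyme genes together took 1.04% ± 0.10003 of the counts in peritubular capillaries and 0.899% ± 0.0646 in whole kidney (SD, n = 4 in every group). They took 0.607% ± 0.0532 in venules, 0.355% ± 0.0265 in glomeruli and 0.304% ± 0.0955 in arterioles. The ranges were 0.928 to 1.14 in peritubular capillaries, 0.817 to 0.971 in whole kidney, 0.544 to 0.671 in venules, 0.331 to 0.389 in glomeruli and 0.197 to 0.4298 in arterioles. The libraries of peritubular capillaries and whole kidney overlapped with each other, all venule libraries lay below both, and arteriole and glomerular libraries overlapped with each other below all venule libraries. The means of the 24 proximal tubule genes stood in the same order, with arterioles and glomeruli close to each other in both.

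**Figure D1:**
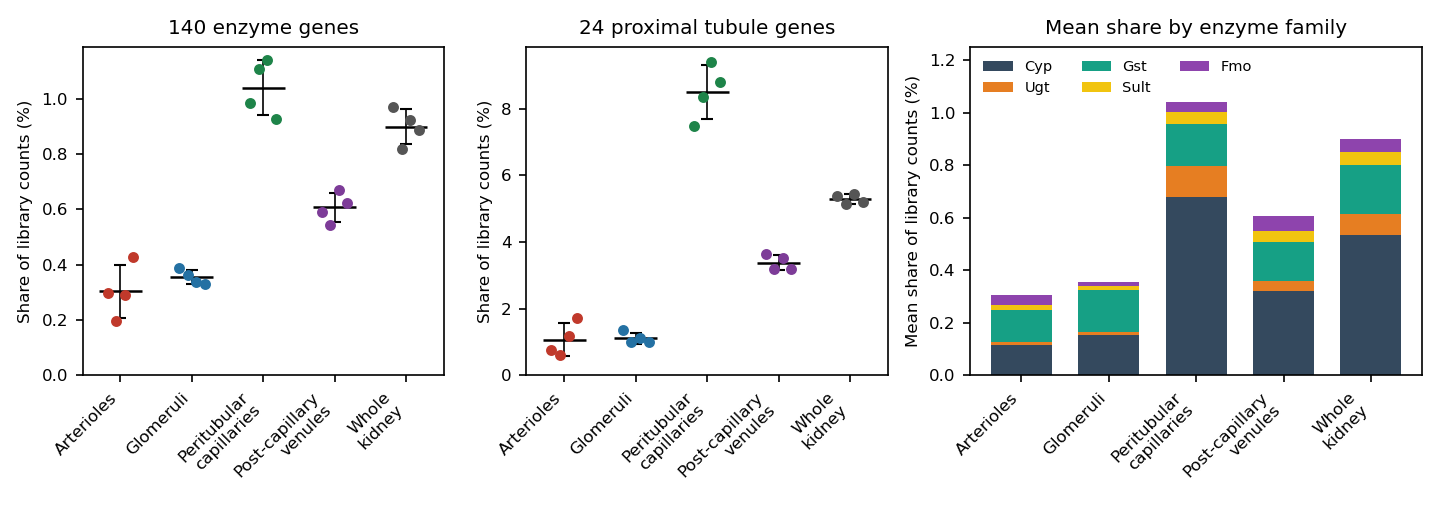
Share of library counts (%) on the 140 enzyme genes (left) and on 24 proximal tubule genes (middle), with 1 point per library, the mean as a line and the SD as an error bar (n = 4 per group), and the mean share of each enzyme family stacked (right). Peritubular capillaries lie highest in all 3 panels, and the Gst part of the stack ranges from 0.122% in arterioles to 0.189% in whole kidney.

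Families of enzymes differed in how far they varied. Ugt genes took 0.118% ± 0.0149 in peritubular capillaries but 0.0124% ± 0.0101 in arterioles and 0.0125% ± 0.00237 in glomeruli. Cyp genes took 0.679% ± 0.0646 in peritubular capillaries, 0.533% ± 0.0337 in whole kidney, 0.321% ± 0.0368 in venules, 0.155% ± 0.0393 in glomeruli and 0.114% ± 0.0612 in arterioles. The Gst share lay closer together, at 0.189% ± 0.00706 in whole kidney, 0.159% ± 0.0281 in peritubular capillaries, 0.157% ± 0.0234 in glomeruli, 0.151% ± 0.0207 in venules and 0.122% ± 0.0481 in arterioles. For Sult genes the means ran from 0.0165% ± 0.00922 in glomeruli to 0.0478% ± 0.00446 in whole kidney, and for Fmo genes from 0.0146% ± 0.00248 in glomeruli to 0.0591% ± 0.0109 in venules.

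Of the 140 genes, 25 had no count in any of the 20 libraries, and 51 had none in the 16 LMD libraries. The 25 undetected genes were 16 Cyp, 4 Ugt, 4 Sult and 1 Fmo genes. Among them were Cyp7a1, the rate-limiting enzyme of bile acid synthesis, Cyp11a1, Cyp19a1 and Cyp21a1, enzymes of steroid hormone synthesis, and Cyp2c37, Cyp2c54 and Cyp2c70 of the Cyp2c subfamily, chosen from the 25 as examples after their values were seen. All 23 Gst genes had counts. A further 52 genes had counts but did not pass the filter on low counts, so that 63 genes were tested against whole kidney and 56 between the LMD compartments. Counts of calls over the tested genes are descriptions, since a gene can pass the filter through 1 group where it is high.

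Of 5 Ugt1a genes in the table, 3 had 0 counts, while Ugt1a6a had 4 and Ugt1a7c 286 over all 20 libraries. The mouse Ugt1a genes are spliced from separate first exons to shared last exons, where these libraries read. Of the 50-base stretches in the last 500 bases of their transcripts, 43.7% (Ugt1a7c) to 100% (Ugt1a5, Ugt1a6a and Ugt1a6b) were shared with another gene in the GENCODE M21 annotation. The low counts of Ugt1a genes are therefore uncertain and are not read as low expression. Of the genes without counts named above, Cyp2c37 shares 30.4% and Cyp2c54 27.05% of these stretches with another gene, so their 0 counts are uncertain as well.

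Levels are given as CPM (the count of a gene per 1000000 of the TMM-scaled total of its library), and compare 1 gene between samples. A gene was called against whole kidney at an adjusted p under 0.05 in edgeR's quasi-likelihood test and a log2 fold change past 1 in size, and against the other compartments at an adjusted p under 0.05. Against whole kidney, 13 of 63 tested enzyme genes were lower in arterioles and 0 higher (1 without any 1 arteriole library), where 5.5% of all 13813 genes tested were called lower and 5.78% higher. In glomeruli 13 were lower and 0 higher, beside 1.47% and 1.59% of all genes. Of the 13 genes of each list, 8 were on both lists: Cyp2d9, Cyp2e1, Cyp2j5, Cyp4a10, Cyp4a31, Cyp4b1, Cyp7b1 and Sult1b1. Both comparisons use the same 4 whole kidney libraries. The remaining calls were Cyp2a5, Cyp2j6, Gsta2, Ugt3a2 and Ugt8a in arterioles and Cyp2a4, Cyp2j11, Fmo2, Sult1d1 and Ugt2b38 in glomeruli. Some called genes share many of the 50-base stretches at their 3′ ends with another gene. The shares were 62.1% for Gsta2, 44.35% for Cyp2a4, 32.2% for Cyp2d9 and 29.9% for Cyp2a5. By family, the arteriole list held 9 of 32 tested Cyp genes, 2 of 6 Ugt, 1 of 16 Gst, 1 of 5 Sult and 0 of 4 Fmo genes, and the glomerular list held 9 Cyp, 1 Ugt, 0 Gst, 2 Sult and 1 Fmo genes. In peritubular capillaries 0 were called in either direction, beside 0.0869% higher and 0.00724% lower of all genes, and in venules again 0, beside 0.203% and 0.0217%. At an unadjusted p under 0.05 edgeR held 6 of 63 enzyme genes in venules (9.52%, beside 9.36% of all genes tested), 10 in peritubular capillaries (15.9%, beside 12.4%), 25 in glomeruli (39.7%, beside 15%) and 28 in arterioles (44.4%, beside 33.1%). DESeq2 called 0 enzyme genes higher and 2 lower in venules, beside 0.485% and 0.789% of all genes, and 0 in either direction in peritubular capillaries, beside 0.253% and 1.8%. It called 0 higher and 16 lower in glomeruli, beside 3.06% and 3.17% of all genes, and 5 higher and 17 lower in arterioles, beside 13% and 12.6%.

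The median log2 fold change against whole kidney over the 63 tested genes was -0.06 in venules (0.19 over all genes tested), 0.47 in peritubular capillaries (0.18), -1.66 in glomeruli (0.25) and -1.68 in arterioles (0.22). The 13 calls in arterioles fell to 7 to 8 when any 1 whole kidney library was left out (8 without 93, 7 without 96, 8 without 98 and 8 without 100). The 13 calls in glomeruli fell to 7 without any 1 whole kidney library, to 8 without glomerular library 93 or 100 and to 7 without 96.

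**Figure D2:**
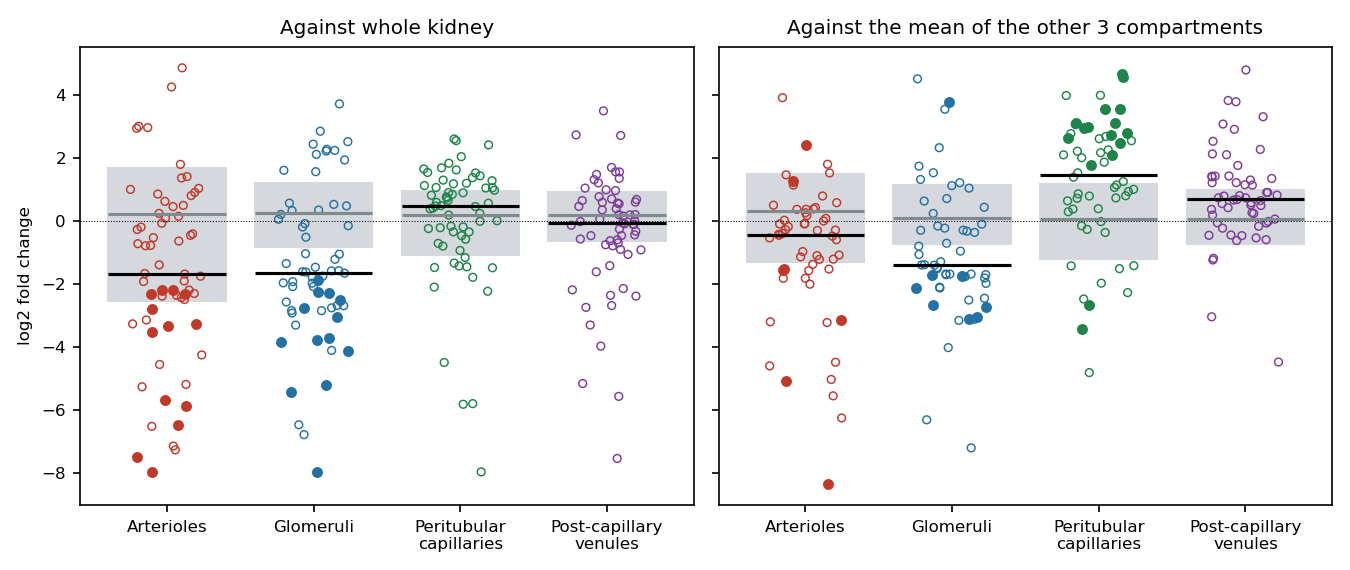
Log2 fold change of the tested enzyme genes against whole kidney (left, 63 genes) and against the mean of the other 3 LMD compartments (right, 56 genes), with 1 point per gene, filled where the gene was called. Black lines are the medians of the enzyme genes and grey boxes the quartiles of all genes tested, with their median as a grey line. For a gene at 0 in a group, such as Sult1b1, the position depends on the prior count. The filled points lie below 0 in arterioles and glomeruli on the left, and the peritubular capillary column on the right holds 14 filled points above 0.

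Between the LMD compartments, each was compared with the mean of the other 3 on the log scale. Slide and stain differed between capillaries and the other compartments, which cannot be told apart from the capillary values. In peritubular capillaries 14 of 56 tested enzyme genes were higher and 2 lower, beside 4.3% and 2.91% of all 12179 genes. The 14 were 9 of 29 tested Cyp genes (Cyp2a5, Cyp2d9, Cyp2d12, Cyp2e1, Cyp2j5, Cyp2j13, Cyp4a10, Cyp4a31 and Cyp4b1), 4 of 5 Ugt genes (Ugt2b37, Ugt2b38, Ugt3a2 and Ugt8a) and 1 of 14 Gst genes (Gstt2). In glomeruli 1 was higher and 7 lower, beside 2.46% and 1.33%. In arterioles 2 were higher and 5 lower, beside 8.11% and 3.23%, with 3 and 4 by size factors from relative log expression (RLE), beside 11.6% and 2.97%, and 4 and 11 by DESeq2, beside 14% and 12%. In venules 0 were called by edgeR, beside 0.369% higher and 0.181% lower of all genes, with 11 enzyme genes (19.6%) at an unadjusted p under 0.05, beside 12.3% of all genes, and 2 called higher by DESeq2, beside 1.49%. The median log2 fold changes over the 56 genes were 1.46 in peritubular capillaries, 0.70 in venules, -0.44 in arterioles and -1.40 in glomeruli, against 0.07, 0.07, 0.31 and 0.11 over all genes. The 14 calls in peritubular capillaries ranged from 10 to 16 when libraries were left out in turn. The 7 lower calls in glomeruli became 4 without glomerular library 93 and 3 without 98. The 5 lower calls in arterioles became 3 without arteriole 96, glomerular 93 or capillary 96, and 10 without arteriole 100. The 2 higher calls in arterioles (Cyp1b1 and Fmo2), the higher call in glomeruli (Cyp26b1) and the 2 lower calls in capillaries (Cyp1b1 and Gstm2) each ended without certain libraries, which are named with these genes. The share of counts on the proximal tubule genes moved with these comparisons, from 0.625% to 1.73% in arteriole and glomerular libraries to 7.47% to 9.41% in capillaries, and its part in them was not tested.

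**Figure D3:**
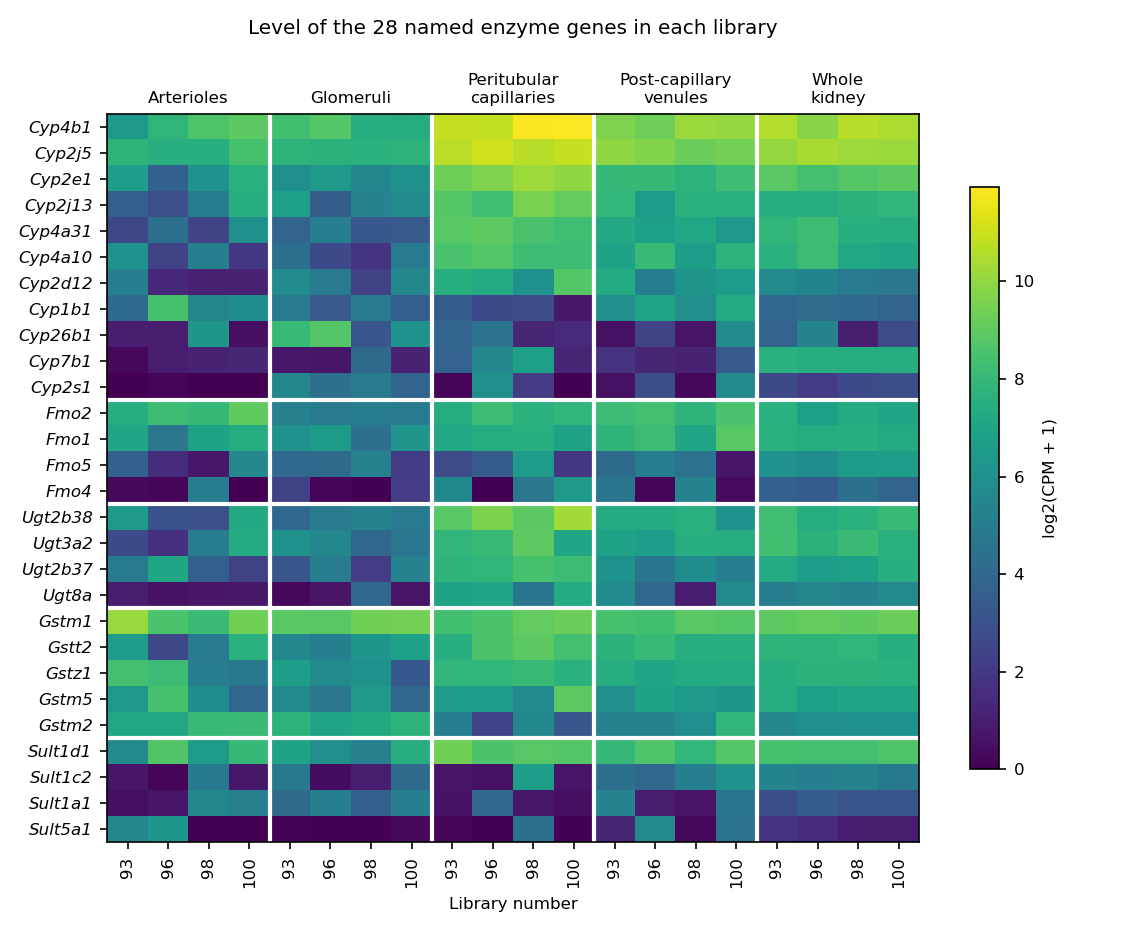
Level of the 28 named enzyme genes as log2(CPM + 1), with 1 row per gene, ordered by family and level, and 1 column per library, ordered by group and number. The first rows (Cyp4b1, Cyp2j5, Cyp2e1 and Cyp2j13) are brightest in all 4 peritubular capillary libraries, while Gstm1 is bright in all 20 libraries and Cyp7b1 in the whole kidney libraries.

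The 3 most abundant Cyp genes were Cyp4b1, Cyp2j5 and Cyp2e1, and they shared 1 pattern. Cyp2j5 (ENSMUSG00000052520, chr4:96628773-96664154, minus strand) encodes an enzyme that converts arachidonic acid to epoxides. Its CPM was 1690.4, 2196, 1634 and 1893 in peritubular capillaries, 1072, 1349, 1166 and 1126 in whole kidney and 1007, 814, 600 and 695 in venules. In arterioles it was 220.4, 180.3, 183 and 355, and in glomeruli 218, 203, 198 and 212. All capillary libraries lay above all others, all whole kidney libraries lay above all venule libraries, and arteriole and glomerular libraries overlapped at the bottom. Against whole kidney Cyp2j5 was lower in arterioles (log2 fold change -2.33 ± 0.32, SE, adjusted p = 2.60e-06) and in glomeruli (-2.50 ± 0.32, adjusted p = 2.11e-06). In capillaries the difference was 0.65 ± 0.31 (adjusted p = 0.369) and did not pass. Against the other compartments Cyp2j5 was higher in capillaries (2.46 ± 0.27, adjusted p = 5.29e-08) and lower in arterioles (-1.51 ± 0.33, adjusted p = 0.00175) and glomeruli (-1.75 ± 0.34, adjusted p = 0.00113). These calls held whichever of the 16 LMD libraries was left out. The calls of Cyp2j5 against whole kidney held without any 1 library of the compartment or of whole kidney, the only libraries left out there.

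Cyp4b1 (ENSMUSG00000028713, chr4:115624725-115647723, minus strand), which oxidizes fatty acids and activates some furan toxins, had the most counts of the 140 genes. Its CPM was 1882, 1819, 3624 and 3947 in peritubular capillaries, 1524, 899, 1608 and 1412 in whole kidney, 793, 635, 1153 and 1074 in venules, 318, 441, 179 and 168 in glomeruli and 83.3, 223, 405 and 491 in arterioles. Capillary libraries again lay above all others, and all arteriole and glomerular libraries lay below all venule libraries. It was lower than whole kidney in arterioles (log2 fold change -2.18 ± 0.41, adjusted p = 0.000356) and glomeruli (-2.30 ± 0.41, adjusted p = 0.000493). Against the other compartments it was higher in capillaries (2.73 ± 0.32, adjusted p = 1.32e-07), lower in arterioles (-1.57 ± 0.39, adjusted p = 0.005398) and lower in glomeruli (-1.73 ± 0.39, adjusted p = 0.00524). The last call ended without glomerular library 98 (adjusted p = 0.05301).

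Cyp2e1 (ENSMUSG00000025479, chr7:140763739-140774987, plus strand), which oxidizes ethanol and acetaminophen, had CPM of 642, 796, 1187 and 982 in peritubular capillaries, 470.5, 346, 426 and 488 in whole kidney and 259, 253, 209 and 304 in venules. In glomeruli its CPM was 61.5, 84.96, 44.3 and 63.7, and in arterioles 102, 11.9, 70.1 and 193. Arteriole 96 had the lowest value of the 20 libraries and arteriole 100 the highest of its group, below all venule libraries. Cyp2e1 was lower than whole kidney in arterioles (-2.20 ± 0.51, adjusted p = 0.00344) and glomeruli (-2.77 ± 0.52, adjusted p = 0.000798) and higher in capillaries than in the other compartments (2.96 ± 0.41, adjusted p = 3.39e-06). In glomeruli against the other compartments it was lower (-2.13 ± 0.52, adjusted p = 0.0109), a call that ended without glomerular library 98 (adjusted p = 0.0729). Of the 50-base stretches at the 3′ end of Cyp2e1, 12.3% also occur in another gene, most often Fcho2.

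The sequences before the start sites of these 3 genes are shown because the genes moved together across the groups, beside that of Cyp1b1, whose pattern differed. Each is the 250 bases before the start in RefSeq (GRCm38.p6), on the strand of the gene, at chr4:96664120-96664369, minus strand (Cyp2j5), chr4:115647722-115647971, minus strand (Cyp4b1), chr7:140763569-140763818, plus strand (Cyp2e1), and chr17:79715062-79715311, minus strand (Cyp1b1). Capitals mark matches, on either strand, to 5 motifs that were searched: GTTAAT (core of the HNF1 site), CAAAGTCCA (an HNF4 site), AGGTCA (recognized by many nuclear receptors), GCGTG (core of the dioxin response element, bound by the aryl hydrocarbon receptor) and TATAAA (the TATA box). The searched motifs do not overlap in these 4 windows.
Cyp2j5: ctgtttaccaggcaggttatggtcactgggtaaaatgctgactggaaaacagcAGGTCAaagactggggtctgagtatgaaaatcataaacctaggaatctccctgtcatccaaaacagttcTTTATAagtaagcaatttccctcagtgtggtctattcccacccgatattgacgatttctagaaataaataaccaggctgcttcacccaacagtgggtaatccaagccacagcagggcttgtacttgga
Cyp4b1: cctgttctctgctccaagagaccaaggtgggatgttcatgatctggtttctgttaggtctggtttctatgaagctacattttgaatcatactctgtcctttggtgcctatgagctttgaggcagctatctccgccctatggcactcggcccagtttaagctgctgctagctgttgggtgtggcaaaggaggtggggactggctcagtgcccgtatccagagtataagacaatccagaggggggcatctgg
Cyp2e1: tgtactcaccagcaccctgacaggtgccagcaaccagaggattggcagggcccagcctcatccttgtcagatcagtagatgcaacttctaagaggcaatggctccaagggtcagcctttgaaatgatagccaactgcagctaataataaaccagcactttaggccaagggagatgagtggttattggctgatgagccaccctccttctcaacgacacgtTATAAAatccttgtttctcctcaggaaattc
Cyp1b1: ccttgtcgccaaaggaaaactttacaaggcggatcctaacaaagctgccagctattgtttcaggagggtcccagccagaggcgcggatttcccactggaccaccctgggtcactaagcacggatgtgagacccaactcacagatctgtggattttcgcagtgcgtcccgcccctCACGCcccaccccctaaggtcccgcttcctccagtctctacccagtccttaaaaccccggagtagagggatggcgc

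Of 32851 windows of this length in the RefSeq promoter table, 6.43% held GTTAAT, 0.384% CAAAGTCCA, 14% AGGTCA, 28.2% GCGTG and 12.4% TATAAA. The Cyp2j5 window held AGGTCA from 197 to 192 bases before the start and TATAAA, on the other strand, from 128 to 123. The Cyp2e1 window held TATAAA from 31 to 26 bases before the start, the Cyp1b1 window held GCGTG on the other strand from 76 to 72, and the Cyp4b1 window held none of the 5 motifs. No motif was present in all 3 of Cyp2j5, Cyp4b1 and Cyp2e1. A match describes letters in a window and is not a site of binding. Of the 28 named genes, 21 had a window in the table.

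The Cyp4a genes encode fatty acid omega-hydroxylases, known as targets of the receptor PPAR alpha, and 2 of them followed the same order. Cyp4a31 had CPM of 459, 510.3, 362 and 315 in peritubular capillaries and 232, 304, 180.4 and 171 in whole kidney, against 13.7, 33.3, 8.88 and 9.15 in glomeruli, 5.12, 19.96, 4.496 and 62.3 in arterioles and 80.6 to 146 in venules. Cyp4a10 had 360.3, 429, 302 and 301 in peritubular capillaries, 197, 289.7, 136 and 124 in whole kidney, 19.6, 5.303, 2.57 and 29.8 in glomeruli, 66.5, 4.51, 34.3 and 2.86 in arterioles and 103 to 259.8 in venules. For both genes all capillary libraries lay above all libraries of arterioles, glomeruli, venules and whole kidney, and all arteriole and glomerular libraries below all of whole kidney. Cyp4a31 was lower than whole kidney in arterioles (-3.27 ± 0.70, adjusted p = 0.00151) and in glomeruli (-3.77 ± 0.71, adjusted p = 0.000884), and higher in capillaries than in the other compartments (3.54 ± 0.56, adjusted p = 2.77e-05). For Cyp4a10 these values were -2.79 ± 0.77 (adjusted p = 0.0168), -3.70 ± 0.80 (adjusted p = 0.00465) and 3.09 ± 0.60 (adjusted p = 0.000641). The arteriole call of Cyp4a10 ended without whole kidney 96 (adjusted p = 0.0614) and when the model held arterioles and whole kidney alone (0.0548). Both were lower in glomeruli than in the other compartments (Cyp4a31 -2.67 ± 0.73, adjusted p = 0.0269; Cyp4a10 -3.04 ± 0.81, adjusted p = 0.0227). These 2 calls ended without glomerular library 93 (adjusted p = 0.0818 for Cyp4a31 and 0.0522 for Cyp4a10) or 98 (0.125 and 0.107), that of Cyp4a31 also without 100 (0.108) and that of Cyp4a10 also without 96 (0.0961). Cyp4a31 shares 15.5% of its 3′ stretches with another gene, mostly Cyp4a32.

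Cyp2j13, a relative of Cyp2j5, had CPM of 447, 307, 738 and 549 in peritubular capillaries, above its 171 to 231 in whole kidney. In glomeruli the range was 10.6 to 105 and in arterioles 6.6 to 183, where arteriole 100 stood at 183 and the other 3 at or below 32.8. It was higher in capillaries than in the other compartments (2.63 ± 0.55, adjusted p = 0.00157), also when any 1 library was left out. Cyp2d12 had 183, 162, 64.1 and 440.1 in peritubular capillaries, with capillary 100 highest and 98 lowest, and 34.96, 1.61, 1.12 and 1.249 in arterioles, where library 93 stood apart. It was higher in capillaries (2.79 ± 0.75, adjusted p = 0.0161), a call that ended without capillary 100 (adjusted p = 0.175). Its lower call in arterioles (-3.14 ± 1.02, adjusted p = 0.03903) ended without arteriole 96, 98 or 100, glomerular 93 or 100, capillary 93 or 100, or venule 93 (adjusted p up to 0.08998), and with RLE factors (0.0561). Cyp2d12 shares 17.3% of its 3′ stretches, mostly with Cyp2d9.

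Cyp7b1 (ENSMUSG00000039519, chr3:18071950-18243338, minus strand), an oxysterol 7 alpha-hydroxylase, had its highest levels in whole kidney. Its CPM was 199, 176, 167 and 165 in whole kidney and 12.7, 45.7, 105 and 1.37 in peritubular capillaries. It was 0.701, 0.663, 16.5 and 1.21 in glomeruli, 2.58, 1.46, 1.297 and 9.51 in venules and 0.213, 0.966, 1.24 and 1.43 in arterioles. All 16 LMD libraries lay below all 4 whole kidney libraries, and within peritubular capillaries the values ran from 1.37 to 105. Cyp7b1 was lower than whole kidney in arterioles (-7.49 ± 1.49, adjusted p = 0.000734), also without any 1 arteriole or whole kidney library. The glomerular call (-5.20 ± 1.34, adjusted p = 0.0202) ended without glomerular 93, 96 or 100 or any 1 whole kidney library (adjusted p up to 0.0798). Venules (-5.57 ± 1.36, adjusted p = 0.0739) and capillaries (-2.10 ± 1.16, adjusted p = 0.481) did not pass. Genes that mark the S3 segment of the proximal tubule (7 genes, none at 0 in a group) took 0.202 to 0.2501% of the counts in whole kidney libraries and 0.186 to 0.24003% in peritubular capillaries, but 0.0575 to 0.0698% in venules, 0.0214 to 0.0632% in arterioles and 0.0142 to 0.0282% in glomeruli. Their part in the result was not tested.

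Cyp genes with other patterns were Cyp1b1, Cyp26b1 and Cyp2s1. Cyp1b1 (ENSMUSG00000024087, chr17:79701537-79715061, minus strand), which oxidizes estradiol and polycyclic aromatic compounds and is induced through the aryl hydrocarbon receptor, had CPM of 17.1, 355, 42.6 and 54.97 in arterioles and 58.02, 126, 59.5 and 158 in venules. It had 27.9, 9.06, 30.1 and 10.7 in glomeruli, 14.8, 18.1, 15.7 and 12.8 in whole kidney and 10.6, 5.16, 6.18 and 0.782 in peritubular capillaries. All 4 venule libraries lay above all glomerular, capillary and whole kidney libraries, and so did 3 of 4 arteriole libraries, while the arteriole mean of 117 ± 159 (SD) rested largely on library 96. Cyp1b1 was called higher in arterioles than in the other compartments (2.39 ± 0.79, adjusted p = 0.0434) and lower in peritubular capillaries (-3.43 ± 1.09, adjusted p = 0.0467). Without arteriole 96 the arteriole value was 0.80 (adjusted p = 0.632), and the call also ended without any 1 glomerular or venule library, without capillary 96 or 98, and with the library number as a block (adjusted p = 0.243). The capillary call ended without arteriole 96 or any 1 library of glomeruli, capillaries or venules (adjusted p up to 0.123), and with the block (0.0876). In venules the value was 2.10 ± 0.80 (adjusted p = 0.251). Against whole kidney, Cyp1b1 stood at 2.94 ± 1.03 in arterioles (adjusted p = 0.0548) and 2.71 ± 1.02 in venules (adjusted p = 0.3301). Genes that mark fibroblasts and adventitia (9 genes, none at 0 in a group) took 0.222 to 0.329% of the counts in arteriole libraries, 0.125 to 0.266% in venules, 0.0483 to 0.0563% in glomeruli, 0.0321 to 0.0376% in whole kidney and 0.00675 to 0.0225% in peritubular capillaries, and their part in the result was not tested.

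Cyp26b1 (ENSMUSG00000063415, chr6:84571414-84593908, minus strand), which breaks down retinoic acid, had CPM of 274, 423, 8.03 and 69.9 in glomeruli. In whole kidney it had 12.8, 39.9, 1.03 and 5.57, in peritubular capillaries 13.9, 22.4, 1.399 and 1.76, in venules 0.448, 4.497, 0.556 and 53.8 and in arterioles 0.853, 0.966, 78.7 and 0.357. Glomerular 93 and 96 lay above every other library, glomerular 98 did not, and 1 arteriole library (98) exceeded glomerular 100. It was higher in glomeruli than in the other compartments (3.76 ± 1.06, adjusted p = 0.0325), a call that ended without glomerular 93 (adjusted p = 0.1299), glomerular 96 (0.257) or capillary 100 (0.0502), and with the library number as a block (0.149). Against whole kidney the value was 3.71 ± 1.55 (adjusted p = 0.213). Podocyte genes (10 genes, none at 0 in a group) took 0.965 to 1.195% of the counts in glomerular libraries, 0.0839 to 0.154% in arterioles, 0.0229 to 0.0491% in venules, 0.0218 to 0.0267% in whole kidney and 0.0142 to 0.0205% in peritubular capillaries, and their part in the result was not tested.

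Cyp2s1, a Cyp2 enzyme known from epithelia outside the liver, had CPM of 44.3, 20.3, 30.2 and 14.1 in glomeruli and 5.27, 3.34, 5.28 and 6.23 in whole kidney, where all 4 glomerular libraries lay above all whole kidney libraries. In peritubular capillaries it had 0.124, 61.4, 3.26 and 0 and in venules 0.448, 6.198, 0.185 and 49.2, with 1 high library in each. The 4 arteriole libraries together held 1 count of Cyp2s1, against 224 in whole kidney. The ratio of whole kidney to arterioles was 130 (95% interval 23.1 to 5162, counting error only). Cyp2s1 was called lower in arterioles than in the other compartments (adjusted p = 0.0332; the fitted fold change of a gene near 0 depends on the prior count and is not given). The call ended without arteriole 93, 98 or 100, glomerular 93, capillary 96 or venule 100 (adjusted p up to 0.0678). Against whole kidney the adjusted p was 0.0552.

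The Fmo enzymes oxidize nitrogen and sulfur atoms of amines and sulfides, and 4 of the 6 genes were tested. Fmo2 (ENSMUSG00000040170, chr1:162874317-162898726, minus strand) had the lowest and most even levels in glomeruli, with CPM of 35.96, 29.4, 32.4 and 29.3. It had 175, 296, 252 and 519.7 in arterioles, 291, 330.3, 215 and 367 in venules, 167, 303, 196 and 229 in peritubular capillaries and 198, 109.7, 164 and 135 in whole kidney. All 4 glomerular libraries lay below the other 16 libraries. Whole kidney libraries lay below all venule libraries, and the other groups overlapped. Fmo2 was lower in glomeruli than in whole kidney (-2.26 ± 0.50, adjusted p = 0.005598), also without any 1 glomerular or whole kidney library. Against the other compartments Fmo2 was lower there too (-3.12 ± 0.54, adjusted p = 0.000297), whichever LMD library was left out. It was called higher in arterioles than in the other compartments (1.27 ± 0.42, adjusted p = 0.0419), where its mean of 310.5 was close to that of venules at 301. That call ended without arteriole 98 or 100, capillary 93, 96 or 98, or any 1 glomerular or venule library (adjusted p up to 0.196), with no filter on low counts (0.0764), and with the library number as a block (0.1102).

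Fmo1 had CPM of 273 ± 137 (SD, n = 4) in venules, 174 ± 14.8 in whole kidney, 153 ± 29.3 in peritubular capillaries, 112 ± 61.3 in arterioles and 63.01 ± 30.97 in glomeruli. Fmo5 stood at 77.9 ± 20.9 in whole kidney and between 15.2 and 28.4 in the LMD groups. Fmo4 ranged from 0 to 87.2 within peritubular capillaries alone. None of these 3 passed in any comparison, and their libraries within LMD groups spread widely.

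Among the Ugt genes, 4 were higher in peritubular capillaries than in the other compartments. Ugt2b38 (ENSMUSG00000061906, chr5:87409942-87424203, minus strand), a glucuronosyltransferase, had CPM of 455, 774, 486 and 1259 in peritubular capillaries, 315, 170, 195 and 269 in whole kidney and 157, 164, 194 and 70.3 in venules. It had 15.5, 29.9, 39.4 and 29.4 in glomeruli and 88.7, 7.08, 6.52 and 148 in arterioles. All capillary libraries lay above all others, all glomerular libraries below all of venules and whole kidney, and arterioles split into 2 higher libraries (93 and 100) and 2 lower ones. Ugt2b38 was higher in capillaries (3.54 ± 0.51, adjusted p = 6.58e-06), whichever LMD library was left out. In glomeruli it was lower than in whole kidney (-3.05 ± 0.69, adjusted p = 0.00612), also without any 1 glomerular or whole kidney library. Its lower call in glomeruli against the other compartments (-2.73 ± 0.67, adjusted p = 0.0118) ended without glomerular 93 (adjusted p = 0.0568). Ugt2b37, another gene of this subfamily, had 220.1, 224, 359 and 288 in peritubular capillaries, 156, 102, 111 and 186 in whole kidney and 68.4, 23.9, 54.3 and 34.96 in venules. Raw counts of Ugt2b37 spread widely in arterioles (136, 814, 97 and 23) and in glomeruli (81, 297, 45 and 343). It too was higher in capillaries (2.98 ± 0.68, adjusted p = 0.003504), and no left-out library ended this call.

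The other 2 do not attach glucuronic acid. Ugt8a (ENSMUSG00000032854, chr3:125865271-125938619, minus strand) transfers galactose to ceramide in the synthesis of galactolipids, known above all from myelin. Its CPM was 119, 132, 24.02 and 163 in peritubular capillaries, 53.99, 14.7, 0.926 and 48.1 in venules and 32.8, 42.3, 38.8 and 48.8 in whole kidney. In arterioles it was 0.853, 0.483, 0.674 and 0.714, and in glomeruli 0.2003, 0.552, 15.04 and 0.551, where library 98 stood apart. All but 1 (98) of the capillary libraries lay above all whole kidney libraries, and no arteriole library reached 1 CPM. Ugt8a was lower than whole kidney in arterioles (-5.87 ± 1.47, adjusted p = 0.00769), also without any 1 arteriole or whole kidney library. It was higher in capillaries than in the other compartments (4.65 ± 1.05, adjusted p = 0.00317), whichever LMD library was left out. Its lower call in arterioles against the other compartments (-5.09 ± 1.58, adjusted p = 0.0307) ended without arteriole 96 (adjusted p = 0.0607) or 98 (0.0571), glomerular 98 (0.0703) or capillary 96 (0.0504), and with the library number as a block (0.0622). Ugt3a2, of the Ugt3 family, whose enzymes use other sugars, had 231, 267, 507 and 129.7 in peritubular capillaries, 324, 201, 279.9 and 193 in whole kidney and 5.33, 2.25, 31.6 and 162 in arterioles. It was called higher in capillaries (2.10 ± 0.65, adjusted p = 0.0381) and lower than whole kidney in arterioles (-2.31 ± 0.79, adjusted p = 0.0494). The first call ended without glomerular 96, 98 or 100, capillary 93, 96 or 98, or venule 93 or 96 (adjusted p up to 0.211), and with RLE factors (0.05604). The second ended without any 1 whole kidney library or without arteriole 93, 96 or 98 (up to 0.107), with RLE factors (0.0562), and when the model held arterioles and whole kidney alone (0.185).

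The Gst genes, whose enzymes join glutathione to reactive compounds, were the family whose share of counts varied least between the groups. Gstm1 (ENSMUSG00000058135, chr3:108012255-108017973, minus strand), a mu class enzyme and the most abundant of them, had CPM of 1106, 379.6, 285 and 655 in arterioles, 467, 453, 664 and 687 in glomeruli and 507, 563, 514 and 608 in whole kidney. It had 323, 381, 531 and 619 in peritubular capillaries and 349, 324, 481 and 431 in venules. All groups overlapped apart from venules and whole kidney, and group means differed by at most 1.53 times. Compared with whole kidney its log2 difference was -0.47 ± 0.39 in venules (adjusted p = 0.955), -0.24 ± 0.39 in capillaries (0.917), 0.05 ± 0.39 in glomeruli (0.986) and 0.15 ± 0.39 in arterioles (0.823). Gstm1 shares 23% of its 3′ stretches with another gene, most often the pseudogene Gstm2-ps1.

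Gstm2 (ENSMUSG00000040562, chr3:107981702-107986453, minus strand), another mu class enzyme, had its lowest levels in peritubular capillaries. Its CPM was 137, 144, 261 and 278 in arterioles, 209.6, 124, 151 and 213 in glomeruli, 45.6, 61.3, 62.4 and 67.2 in whole kidney and 33.3, 4.28, 47.3 and 8.41 in peritubular capillaries. All arteriole and glomerular libraries lay above all whole kidney and capillary libraries, while venules (38.8, 38.8, 57.6 and 222) overlapped with both ranges through library 100. Gstm2 was lower in capillaries than in the other compartments (-2.66 ± 0.76, adjusted p = 0.0243), a call that ended without capillary 96 (adjusted p = 0.0898), capillary 100 (0.0808) or venule 100 (0.0503). Against whole kidney the values were 1.79 ± 0.72 in arterioles (adjusted p = 0.0844) and 1.56 ± 0.72 in glomeruli (adjusted p = 0.275). Of its 3′ stretches, 10.1% occur in another gene, mostly Gm12499.

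Gstt2, a theta class enzyme, had CPM of 186, 388, 497 and 334 in peritubular capillaries and 215, 208, 229 and 177 in whole kidney, with capillary 93 inside the whole kidney range. It had 44.5, 35.2, 77.2 and 114 in glomeruli and 93.6, 4.99, 28.8 and 188 in arterioles. Its call in capillaries (1.77 ± 0.54, adjusted p = 0.0382) ended without glomerular 93, 96 or 98, capillary 96, 98 or 100, or venule 93, 98 or 100 (adjusted p up to 0.1501), and with RLE factors (0.0544). Gstz1, which acts in tyrosine breakdown, had 198 ± 10.2 in whole kidney and 233 ± 27.8 in capillaries (SD, n = 4), while its arteriole libraries split into 338 and 293 against 31.2 and 27.1. Its 3′ end overlaps Gm6566 on the opposite strand. Gstm5 had 133 ± 27.6 in whole kidney and 186 ± 215 in capillaries, where library 100 stood at 507. Gstz1 and Gstm5 passed in no comparison.

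The Sult genes transfer sulfate to phenols, catecholamines and steroids, and 1 gene, Sult1d1, held most of their counts. Sult1d1 (ENSMUSG00000029273, chr5:87554645-87569027, minus strand), which sulfates catecholamines, had CPM of 686, 390.3, 456 and 433 in peritubular capillaries, 349.6, 333, 328 and 407 in whole kidney and 245, 401, 243 and 444 in venules. In glomeruli it was 119, 58.2, 35.7 and 171, and in arterioles 50.9, 422, 97.1 and 257. Glomerular libraries lay below all of whole kidney, venules and capillaries, and arterioles spread across the range of the other groups. It was called lower in glomeruli than in whole kidney (-1.89 ± 0.54, adjusted p = 0.0412), which ended without glomerular 93, 96 or 98 or any 1 whole kidney library (adjusted p up to 0.136), and with RLE factors (0.0503). Sult1b1, a sulfotransferase of thyroid hormones outside the rule for named genes, was picked after its values were seen, since it had 166 counts in whole kidney, 0 in arterioles, 0 in glomeruli and 5 in the other LMD libraries. It passed the filter on low counts through whole kidney alone, and its values are a description. It was at least 32.1-fold lower in arterioles and at least 51.8-fold lower in glomeruli, at a floor of 3 counts over the group. Sult1a1, Sult1c2 and Sult5a1 had mean levels of at most 35.5 CPM in any group, with single libraries far above the rest of their group, and passed in no comparison. The 3′ end of Sult1a1 overlaps Sgf29 on the opposite strand.

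A level can also be set against the proximal tubule RNA of the same library. Per 1000 counts on the 24 proximal tubule genes, Cyp2e1 had a mean of 6.704 counts in arterioles, 7.35 in glomeruli, 7.48 in venules, 8.85 in peritubular capillaries and 9.68 in whole kidney. On this scale the highest group mean of Cyp2e1 was 1.44 times the lowest, against 14.2 times in CPM. For Cyp4b1 the ratio was 1.46 against 10.2 in CPM, for Cyp2j5 1.48 against 8.92, and for Cyp2j13 1.64 against 9.84. Group means of these 4 genes thus lay closer together per proximal tubule count than in CPM. Kap, an androgen-regulated gene of the proximal tubule, held 44.9% to 69.3% of the counts on the list, depending on the group. Without it, the ratios were 2.19 for Cyp2e1, 1.69 for Cyp4b1, 1.73 for Cyp2j5 and 1.85 for Cyp2j13, an alternative chosen after seeing the data. Gstt2 then had the lowest ratio of the 28 named genes, at 1.33. Ugt3a2 (2.07) and Sult1d1 (2.187) then also lay below Cyp2e1 (2.189).

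Among the 28 named genes, Cyp2e1, Cyp4b1, Cyp2j5 and Cyp2j13 had the lowest ratios with Kap in the list. Others also came closer together than in CPM, among them Ugt3a2 with a ratio of 1.93 against 7.297 in CPM, Ugt2b38 with 2.15 against 26.03, Gstt2 with 2.27 against 5.18, Cyp4a10 with 3.15 against 24.3 and Cyp4a31 with 3.45 against 25.3. Some stayed far apart or moved further apart. Cyp7b1 had 3.94 counts per 1000 in whole kidney and at most 0.553 in the LMD groups. Gstm1 had 65.3 in glomeruli and 49.9 in arterioles against 4.48 in peritubular capillaries, although its CPM was nearly even. Fmo2 had 22.6 in arterioles and 2.297 in capillaries, Gstm2 19.7 in glomeruli and 0.241 in capillaries, and Cyp1b1 9.74 in arterioles and 0.0652 in capillaries. Ugt8a had 1.14 in capillaries and 0.05499 in arterioles. How much of any member's RNA came from the tubule was not tested.

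**Figure D4:**
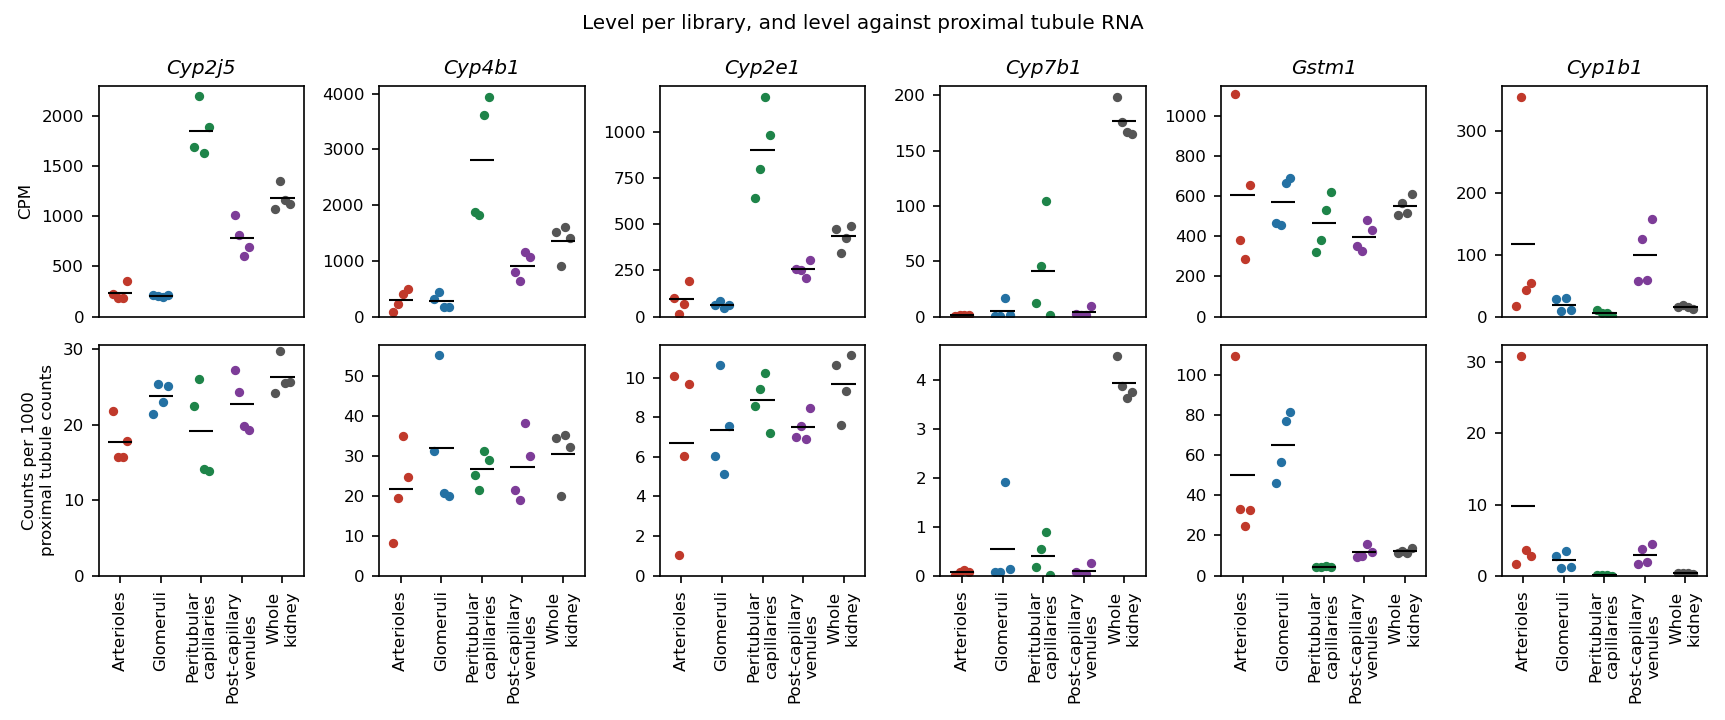
CPM (top) and counts per 1000 counts of 24 proximal tubule genes (bottom) of 6 enzyme genes in each library, with the group mean as a line (n = 4 per group). Group means of Cyp2j5, Cyp4b1 and Cyp2e1 lie closer together in the bottom row than in the top row, while single libraries still spread there (Cyp2e1 from 1.03 in arteriole 96 to 11.1 in whole kidney 100), whereas Cyp7b1 stays highest in whole kidney in both, and Gstm1 is nearly even in the top row and highest in arterioles and glomeruli in the bottom row.

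Further lists of the same pathway were looked at beside the enzymes. Of 16 genes that supply electrons or cofactors, 4 were higher and 0 lower in peritubular capillaries than in the other compartments, beside 4.3% and 2.91% of all genes, among them Por, the reductase that passes electrons to all microsomal Cyp enzymes (log2 fold change 2.00 ± 0.51, adjusted p = 0.0106), and Gclc, the catalytic subunit of the first enzyme of glutathione synthesis (2.82 ± 0.74, adjusted p = 0.0128). Por had mean CPM of 576 ± 159 in capillaries, 315 ± 193 in venules, 221 ± 29.1 in whole kidney, 112 ± 32.2 in glomeruli and 83.5 ± 110.3 in arterioles (SD, n = 4). Against whole kidney 4 genes of this list were lower in arterioles and 1 higher, beside 5.5% and 5.78% of all genes, and in glomeruli 2 were lower and 1 higher, beside 1.47% and 1.59%. Gclc was lower in both (arterioles -4.81 ± 0.89, adjusted p = 0.000283; glomeruli -3.34 ± 0.83, adjusted p = 0.0155). The gene that was higher in both was Cyb5r3, a cytochrome b5 reductase, at 959 ± 157 CPM in arterioles (adjusted p = 7.55e-05) and 667 ± 389.7 CPM in glomeruli (adjusted p = 0.00354), with 177 ± 11.2 CPM in whole kidney.

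Of 14 receptors and regulators of these enzymes, 11 were tested between compartments, and 3 were higher in peritubular capillaries (4.3% of all genes) and 3 lower in arterioles (3.23% of all genes). They were the same 3 genes in both: Hnf4a, a transcription factor of proximal tubule and liver (capillaries 1.94 ± 0.54, adjusted p = 0.0195), Nr1h4, the bile acid receptor (3.90 ± 0.85, adjusted p = 0.002496), and Vdr, the vitamin D receptor (1.81 ± 0.49, adjusted p = 0.0164). Hnf4a had 331 ± 26.9 CPM in capillaries, 271 ± 15.4 in whole kidney, 207 ± 66.2 in venules, 79.7 ± 58.2 in glomeruli and 38.67 ± 34.8 in arterioles. These 2 contrasts share all 16 libraries. Against whole kidney, 12 were tested, and Nr1h4 and Hnf4a were lower in arterioles (5.5% of all genes) while 0 were called in glomeruli (1.47% lower and 1.59% higher of all genes).

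Of 30 other detoxification enzymes, 26 were tested between compartments. In peritubular capillaries 9 were higher and 0 lower, beside 4.3% and 2.91% of all genes, with the smallest p for Ggt1, which cleaves glutathione conjugates at the brush border (3.03 ± 0.39, adjusted p = 1.27e-06), and Nat8, which acetylates cysteine conjugates (3.47 ± 0.46, adjusted p = 1.40e-06). Against whole kidney 27 were tested, and 7 were lower and 1 higher in arterioles, beside 5.5% and 5.78% of all genes, and 5 lower and 0 higher in glomeruli, beside 1.47% and 1.59%. The gene that was higher in arterioles was Ephx1, microsomal epoxide hydrolase, at 247 ± 145 CPM against 29.7 ± 7.89 in whole kidney (log2 fold change 3.05 ± 0.76, adjusted p = 0.00712), and in peritubular capillaries it stood at 33.7 ± 18.3.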

How the data were processed

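RNA of LMD samples and whole kidney sections was made into 3′ mRNA libraries with the QuantSeq FWD kit. The authors removed adapters with bbduk, used STAR 2.7 and counted reads per gene with HTSeq 0.13, and the deposited values are raw read counts without normalization. FastQC 0.11.8, MultiQC 1.7 and SAMtools 1.9 are also named in the submitters' processing notes. These notes name 2 genome builds, GRCm38.p6 and GRCm39, and the methods GRCm38.p6. Not given in the sources used here are the strand setting and whether molecular identifiers served. Of the 168 columns of samples, 20 were assigned to the 5 groups by their header lines and names. The other 148 were not used. The header also marks these columns with 4 h, which the labels do not explain, and the name of capillary column 96 with WH, which is not explained either, so that this column was assigned by its header line.

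The 140 members and all lists were chosen with earlier results of these data known. In R 4.3.3, edgeR 4.0.16 was used with TMM scaling, filterByExpr by group and the quasi-likelihood test, on 20 libraries and 13813 genes against whole kidney, and on 16 libraries and 12179 genes between compartments. P-values were adjusted over all genes tested (Benjamini-Hochberg), and errors of log2 fold changes are standard errors taken from the F statistic. Alternatives were DESeq2 1.42.0, RLE scaling, other filters, other sets of libraries, a block for the library number, and leaving out each library. For a comparison with whole kidney, only libraries of that compartment and of whole kidney were left out. Scripts were tested on simulated counts. The 28 named genes were, per comparison, up to 6 called members with the smallest p in each direction and, per family, the 4 with the highest mean CPM. Any gene at 10 CPM or more in a compartment and called higher there than in whole kidney was to be added, which held for 0. From each pathway list up to 3 called genes with the smallest p per comparison with whole kidney and direction could be named, and those named for the comparison between compartments were added after their values were seen. Intervals and floors cover counting error only. Gene coordinates are from GENCODE M21 on GRCm38 (139 of 140 members matched), counted from 1, and 3′ ends were compared over the last 500 bases in stretches of 50. Of the 139 members compared, 37 shared more than 10% of these stretches with another gene.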

Additional observations from a re-analysis of the deposited data

Results flagged for a closer look

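A single library stood apart from the other 3 of its group (gap to the nearest value, divided by the range of the group, above the critical value of Dixon's test) in 17 of 132 groups of 4 libraries of a named gene whose highest library reached 10 CPM, and in 0 of 30 groups for the shares of counts on the enzymes and their families. Chance flags about 1 in 20 groups where values are normally distributed. Whether the CPM were so distributed was not tested, and the flags are a description. All 17 were high values in LMD libraries and none was in whole kidney. In arterioles these were Cyp1b1 at 355 CPM in library 96, Cyp2d12 at 34.96 in 93, Cyp2j13 at 183 in 100, and Cyp26b1 at 78.7, Fmo4 at 31.5 and Sult1c2 at 27.1 in 98. In glomeruli they were Cyp7b1 at 16.5 and Ugt8a at 15.04, both in library 98. In peritubular capillaries they were Cyp2s1 at 61.4 and Sult1a1 at 14.7 in 96, Gstm5 at 507 in 100, and Fmo5 at 94.8, Sult1c2 at 101 and Sult5a1 at 19.5 in 98. In venules, library 100 stood apart with Cyp26b1 at 53.8, Cyp2s1 at 49.2 and Gstm2 at 222.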

How the results depend on the processing

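Of 46 calls of named genes, 26 held under every alternative run for them, and 0 changed sign. The other 20 lost the call in at least 1 setting, most often when 1 library was left out, and the libraries and settings that end the calls described above are named with the genes. Counts of called enzyme genes depended more on the settings. With DESeq2 the arteriole counts against the other compartments were 4 higher and 11 lower, beside 14% and 12% of all genes. Glomeruli had 12 lower, beside 4.06%, and venules had 2 higher, beside 1.49%. Against whole kidney DESeq2 called 5 higher in arterioles, beside 13% of all genes, and 2 lower in venules, beside 0.789%. When all 20 libraries entered the comparison between compartments, 12 were lower in arterioles, 3 higher in glomeruli and 6 higher in venules. Without a filter on low counts, 1 was higher in arterioles, 3 in glomeruli and 4 in venules between compartments, and 1 was lower in venules against whole kidney. A fit of only the 8 libraries compared gave 2 higher in arterioles, 5 higher and 26 lower in glomeruli, 4 higher and 2 lower in capillaries and 1 higher and 6 lower in venules. An independent filter gave 1 higher in glomeruli and 1 in capillaries. For the other filters, other sets of libraries, left-out libraries and the block, the share of all genes called was not computed. Those counts are descriptions and are not read as particular to the enzymes. RLE factors gave 1 higher in arterioles against whole kidney, beside 7.17% of all genes. They moved the median log2 fold change of all genes in arterioles by 0.17 against whole kidney. Against the other compartments the shift was 0.24 in arterioles and -0.13 in glomeruli. The cause of these shifts was not tested.

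Leaving out 1 library at a time gave 0 to 1 higher and 7 to 14 lower calls in arterioles and 7 to 10 lower calls in glomeruli against whole kidney. Between compartments it gave 0 to 2 higher and 3 to 10 lower in arterioles, 0 to 2 higher and 3 to 9 lower in glomeruli, and 0 to 2 lower in capillaries.

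The methods say that the LMD compartments were cut per mouse, so libraries of different compartments can come from the same mouse. The main tests treat all libraries as independent. No source used here says that a library number stands for 1 mouse, and whether libraries with the same number share one is not known. Deviations from the group means of libraries with the same number had a mean correlation of 0.00793 (range -0.0526 to 0.0714), beside -0.00268 for other numbers. Of 40 pairs, 0 were over 0.1, the level taken here as pairing. However, 15 of 20 libraries were closest to their own number, more than an even spread over the numbers would give. These values do not decide whether libraries are paired by number. With the number as a replicate block, the counts between compartments became 0 higher in arterioles, 0 higher in glomeruli and 1 lower in capillaries, against whole kidney 17 lower in arterioles and 13 in glomeruli, and in capillaries 15 were higher between compartments.

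Without the largest gene of each set, the enzyme share of counts was 0.320% in glomeruli, 0.811% in capillaries, 0.515% in venules and 0.738% in whole kidney. The Cyp share was 0.450%, 0.229% and 0.371% in the last 3. The Gst share was 0.0849% in glomeruli, 0.121% in capillaries, 0.111% in venules and 0.124% in whole kidney, and the Ugt share 0.00884%, 0.0574%, 0.0227% and 0.0525%. The Fmo share was 0.0117% in arterioles and, in the same order, 0.0105%, 0.0187%, 0.0296% and 0.0316%, and the Sult share 0.00452%, 0.00444%, 0.00287%, 0.00658% and 0.00580%. Leaving Kap out of the proximal tubule list, chosen after seeing the data, moved the ratio of highest to lowest group per 1000 counts to 2.19 for Cyp2e1, 8.33 for Gstm1 and 46.2 for Gstm2.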

Other observations

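The enzymes that activate and break down vitamin D in the kidney were among the 140 genes, and were picked out after their values were seen. Cyp24a1, which breaks down active vitamin D, had CPM of 28.3 ± 29.9 (SD, n = 4) in venules, 19.4 ± 16.4 in whole kidney, 11.1 ± 11.6 in peritubular capillaries, 4.204 ± 8.06 in arterioles and 2.55 ± 2.27 in glomeruli. It passed in no comparison (adjusted p = 0.391 in arterioles and 0.514 in glomeruli against whole kidney, edgeR). Cyp27b1, which makes active vitamin D, did not pass the filter on low counts, with 0, 0.147, 0 and 9.78 CPM in peritubular capillaries and 0.283 to 1.38 in whole kidney.

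Members whose highest group mean was outside whole kidney and capillaries, chosen in the same way, included Gsta4, which conjugates lipid aldehydes, at 87.3 ± 45.9 CPM in glomeruli and 20.2 ± 6.87 in whole kidney (adjusted p = 0.592), and Cyp20a1, a Cyp gene whose substrate is not known, at 93.8 ± 66.7 in arterioles and 12.1 ± 1.99 in whole kidney (adjusted p = 0.0672). Neither passed the test.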
